A study of Mus musculus with 8 samples.

Results

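The renin-angiotensin and endothelin systems were followed through 9 genes in infarcted and sham-operated mouse hearts: Ace, Agt, Agtr1a, Agtrap, Edn1, Edn3, Ece1, Ednra and Ednrb. The genes were taken as a list. Each was found as a single locus of the deposited transcript assembly, and the 9 loci are among 35299 in the table. All 9 passed the filter on low values, a mean of at least 10 normalised reads over the 8 hearts, as did 19186 loci in all. The hearts came from C57BL/6J mice aged 12 weeks, 4 labelled MI (myocardial infarction, the death of heart muscle after a coronary artery is blocked) and 4 labelled Sham. Tissue of the border zone, the muscle beside the infarct or the matching place in a sham heart, was collected 2 weeks after surgery and its poly(A) RNA was sequenced. No allele, drug or other agent is named for either group. Titles and the treatment field gave the groups, although the source field reads Sham for every heart and the free-text descriptions of 3 MI hearts and 1 Sham heart name the other operation. Titles of Sham hearts alone carry a remark that they were reanalysed, so that any difference in handling cannot be told apart from the operation.

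Libraries held 165.5 to 190.2 M reads in loci for MI and 108.3 to 160.7 M for Sham, and 23.8 to 26.1% of MI reads and 29.2 to 32.3% of Sham reads lay on the mitochondrial genome. The genes that check the labels went with them: Nppa, the gene of atrial natriuretic peptide, rose (log2 difference 4.37, limma adjusted p = 2.76e-07; its exons overlap Clcn6 on the other strand), and Atp2a2, which encodes the cardiac calcium pump SERCA2, fell (-0.97, adjusted p = 8.38e-04). Summed genes of atrial muscle (Sln, Myl7 and Myl4, of which all 3 rose) stood at 12698 normalised reads in MI replicate 2 and at 274, 4392 and 2646 in MI replicates 1, 3 and 4, against 187 to 585 in Sham. Genes of fat cells (Adipoq, Cidec, Plin1 and Lep, of which 3 were tested and rose) summed to 4344 in MI replicate 3 and to 79.4 to 488 in the other MI hearts, against 12.5 to 22.7 in Sham. Immediate early genes (Fos, Fosb, Atf3, Nr4a1, Nr4a3, Egr1 and Junb, of which 3 of 7 rose) summed to 13662 to 30329.9 in MI, against 50397.5 in Sham replicate 3 and 5647 to 11881 in the other Sham hearts. These 3 lists were added after the data were seen, and their part in the results below was not tested.

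Angiotensinogen, the product of Agt, is the precursor that renin cuts to angiotensin I. Angiotensin-converting enzyme, the product of Ace, is an ectoenzyme best known on endothelium. It trims angiotensin I to angiotensin II, which constricts vessels and acts on muscle cells and fibroblasts through the type 1 receptor encoded by Agtr1a. The protein encoded by Agtrap binds that receptor and favours its internalisation. Endothelins are short vasoactive peptides cut from larger precursors, the products of Edn1 and Edn3, by endothelin-converting enzyme (Ece1). They act through the receptors ETA (Ednra), which prefers endothelin-1, and ETB (Ednrb), which binds all endothelins alike and is abundant on endothelium.

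Infarcted hearts held more RNA of the converting enzyme gene Ace, of both endothelin precursors and of the ETB receptor gene, and less RNA of the angiotensin receptor gene Agtr1a. Of the 9 genes, 4 rose (Ace, Edn1, Edn3 and Ednrb) and 1 fell (Agtr1a), by limma with Benjamini-Hochberg adjusted p under 0.05 over all tested loci. Agt, Agtrap, Ece1 and Ednra did not pass. In the same test 20.8% of all tested loci rose and 20.1% fell, 40.9% together, so 5 calls among 9 genes is a share not far above that of the whole table. The median log2 difference was 0.57 over the 9 genes and -0.02 over all tested loci. The hearts of the groups separated fully for 3 of the 9 genes, against 39.6% of tested loci: Ace and Edn1 with MI above (19.7% of loci) and Agtr1a with MI below (20.0%).

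**Figure D1:**
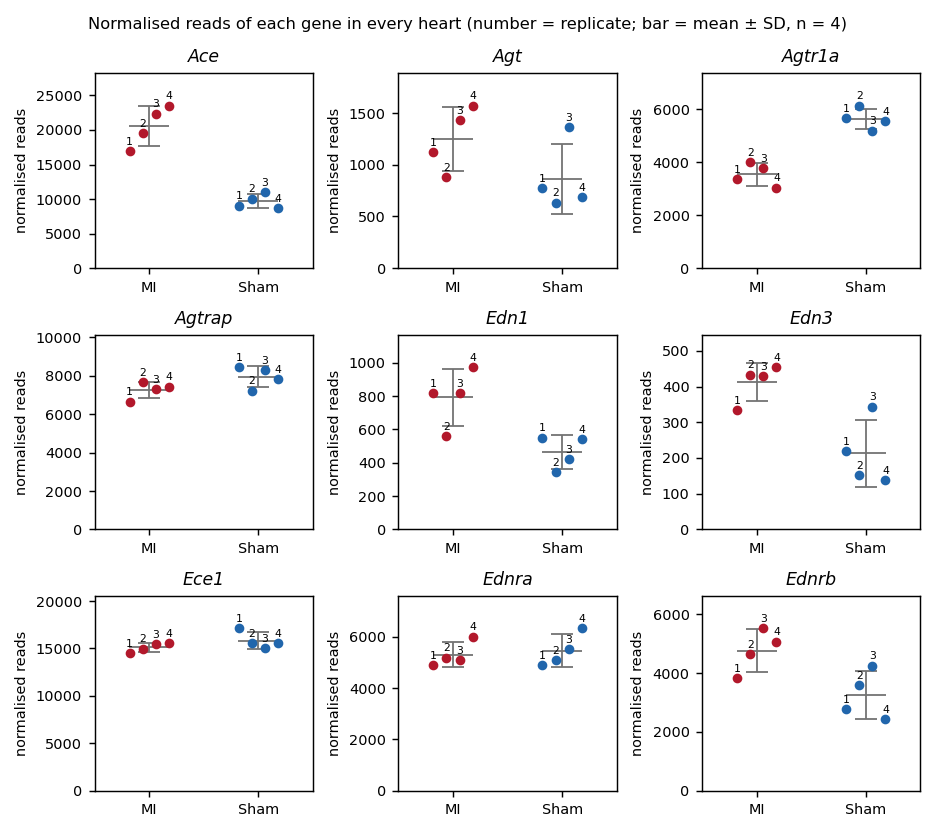
Normalised reads of the 9 genes on the vertical axes, with a point for each heart, its replicate number above it and the group mean ± SD as bars (n = 4). MI hearts sit at 16962 to 23507 for Ace, above every Sham heart, and at 3042 to 4004 for Agtr1a, below every Sham heart, while the groups mix for Ednra.

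Ace and Edn1 are the genes whose MI hearts all lay above the Sham hearts, so the windows around their annotated starts are shown, 250 bases before the start and 50 from it on, from RefSeq on GRCm38.p6. The Ace window (chr11:105967698-105967997, plus strand) is that of the upstream of 2 listed starts, and the Edn1 window is chr13:42301226-42301525, plus strand. Capitals mark matches to 4 motifs, searched on both strands. They were the core of the TATA box, TATAAA, the GC box, GGGCGG, the AP-1 site, TGANTCA, and the GATA site, AGATAA.
Ace: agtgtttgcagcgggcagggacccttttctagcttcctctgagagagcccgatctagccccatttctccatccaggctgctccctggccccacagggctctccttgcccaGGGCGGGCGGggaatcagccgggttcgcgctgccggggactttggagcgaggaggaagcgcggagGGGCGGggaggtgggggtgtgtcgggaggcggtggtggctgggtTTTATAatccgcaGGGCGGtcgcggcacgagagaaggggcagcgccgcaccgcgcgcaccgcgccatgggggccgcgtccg
Edn1: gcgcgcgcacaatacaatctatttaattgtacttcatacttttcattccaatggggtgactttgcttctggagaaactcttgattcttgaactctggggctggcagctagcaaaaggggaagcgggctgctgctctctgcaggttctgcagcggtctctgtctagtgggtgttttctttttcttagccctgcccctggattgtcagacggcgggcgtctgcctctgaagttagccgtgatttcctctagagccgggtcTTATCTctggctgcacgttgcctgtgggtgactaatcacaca
The Ace window held TATAAA on the opposite strand at -31, counted from the start at 0, and GGGCGG at -140, -136, -75 and -18, the first 2 of which overlap. The Edn1 window held AGATAA on the opposite strand at 8. Of all 32851 windows in the table, 13.6% held TATAAA, 35.7% GGGCGG, 7.81% TGANTCA and 11.2% AGATAA. The window of Agt held TATAAA at -30 and that of Agtrap held GGGCGG at 38. Windows of Ece1 held GGGCGG too, though not every one of them. The window of the downstream Ace start and those of Edn3, Ednra and Ednrb held no match to the 4 motifs. A match describes letters in the window and not a bound site.

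Ace (mm9 chromosome 11, 105829261 to 105851261, plus strand, 25 exon blocks) had 16962, 19489, 22372 and 23507 normalised reads in MI hearts, against 9038, 10056, 11004 and 8672 in Sham hearts. Every MI heart lay above every Sham heart, with a wide gap between the lowest MI heart and the highest Sham heart. An antisense locus, Gm11651, shares 231 exon bases and was nearly silent, at 2.52 in MI and 1.14 in Sham. The means were 20583 ± 2947 in MI and 9692 ± 1052 in Sham (SD, n = 4 each), 2.12 times higher in MI, with a log2 difference of 1.08 ± 0.11 (SE, limma adjusted p = 5.56e-05). The call held under every setting and with each library left out, at log2 differences between 1.01 and 1.39.

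Agt (chromosome 8, 127080487 to 127093607, minus strand, 5 exon blocks) had 1123, 879.5, 1430.5 and 1572 normalised reads in MI hearts, against 772, 634, 1364 and 686 in Sham hearts. The groups overlapped because Sham replicate 3, at 1364, lay above 2 MI hearts. The log2 difference was 0.57 ± 0.25, with a 95% interval of 0.02 to 1.11 before adjustment, and it did not pass (limma adjusted p = 0.0887). Without Sham replicate 3, the highest Sham heart, the difference was 0.81 and passed (limma adjusted p = 0.0083). Without MI replicate 2, the lowest MI heart, it was 0.73 and passed (adjusted p = 0.0360). Leaving out either heart widens the difference by construction. In the other 6 of 8 such fits it ran from 0.44 to 0.61 and did not pass (adjusted p 0.1238 to 0.2120). With all hearts Agt was not called by edgeR (adjusted p = 0.1030) or DESeq2 (adjusted p = 0.0576) on the reads. Also with all hearts, the limma difference passed under scaling to library totals, at 0.88 (limma adjusted p = 0.0107). It also passed under scaling to totals outside the mitochondrial genome, at 0.76 (limma adjusted p = 0.0256). Both scalings shift all loci upward. Sham replicate 3 is the heart with the highest sum of immediate early genes, MI replicate 2 the one with the highest sum of atrial genes. Fosb, Atf3, Nr4a1 and Nr4a3 were highest in Sham replicate 3, while some or all MI hearts exceeded it in Fos, Egr1 and Junb. The part of these genes' hearts in the Agt result was not tested.

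Agtr1a (chromosome 13, 30428326 to 30474736, plus strand, 3 exon blocks) had 3371, 4004, 3788 and 3042 normalised reads in MI hearts, against 5666, 6139, 5193 and 5547 in Sham hearts. All 4 MI hearts lay below the lowest Sham heart. It fell to a mean of 3551 ± 429 in MI, against 5636 ± 391 in Sham (SD, n = 4 each; log2 difference -0.67 ± 0.095, limma adjusted p = 3.47e-04). Across settings and left-out libraries, also in pairs, the log2 difference stayed between -0.81 and -0.36 and passed throughout. The other angiotensin receptor genes were close to undetected, with 0 to 2 reads per library for Agtr1b and for Agtr2 in MI as in Sham, where a count of 0 allows up to 3 reads. No fold can be given for them.

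Agtrap (chromosome 4, 147449297 to 147462173, minus strand, 5 exon blocks) had 6649, 7659, 7307 and 7437 normalised reads in MI hearts, against 8458, 7225, 8293 and 7829.8 in Sham hearts. The groups overlapped and the log2 difference was -0.13 ± 0.07, with an interval of -0.29 to 0.03 (limma adjusted p = 0.1872). Set against the receptor in the same heart, which no scaling between hearts can change, Agtrap stood at 0.73, 0.71, 0.71 and 0.90 of the Agtr1a level per kilobase of exon in MI, against 0.55, 0.44, 0.59 and 0.52 in Sham. All 4 MI ratios lay above all Sham ratios (log2 ratio -0.40 ± 0.17 in MI and -0.94 ± 0.19 in Sham, difference 0.54, exact permutation test, 2-sided p = 0.0286, Benjamini-Hochberg p = 0.0286 over 3 ratios). That p is the smallest that 4 hearts against 4 can give. The assembled length of Agtrap includes an extension of its last exon, which lowers its ratio in every heart alike. The ratios thus bear on the difference between groups and not on which of the 2 RNAs is more abundant.

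The peptide precursors of the endothelin system were the least abundant of the 9 genes and both rose. Edn1 (chromosome 13, 42396845 to 42403359, plus strand, 5 exon blocks) had 817, 561, 819 and 975 normalised reads in MI hearts, against 550.3, 345, 422 and 542 in Sham hearts. The groups did not overlap, but MI replicate 2 cleared the highest Sham heart only narrowly. The means were 793 ± 172 in MI and 465 ± 99.2 in Sham (SD, n = 4 each), 1.71 times higher in MI, with a log2 difference of 0.77 ± 0.19 (limma adjusted p = 0.0092). With 1 library left out the difference ran from 0.63 to 0.93, and it passed in all 8 such fits.

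Edn3 (chromosome 2, 174586274 to 174609543, plus strand, 5 exon blocks) had 334, 433, 429.9 and 455 normalised reads in MI hearts, against 219.6, 153, 343 and 137 in Sham hearts. MI replicate 1 lay below Sham replicate 3, and the other 3 MI hearts lay above all Sham hearts. The means were 413 ± 53.7 in MI and 213 ± 93.9 in Sham, 1.94 times higher in MI (SD, n = 4 each; log2 difference 1.04 ± 0.26, limma adjusted p = 0.0085). Sham hearts spread widely, with a coefficient of variation of 13.0% in MI and 44.0% in Sham. The call held in all 8 fits with 1 library left out (0.86 to 1.30) and was lost when MI replicates 2 and 3 were both left out, at 0.96 (adjusted p = 0.0520). Edn2, which encodes the remaining endothelin, had 1 to 6 reads per library in MI and 1 to 3 in Sham and was not tested.

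Ece1 (chromosome 4, 137418212 to 137521144, plus strand, 21 exon blocks), the enzyme that releases the peptides, had 14473, 14980.5, 15416 and 15546 normalised reads in MI hearts, against 17121, 15533, 15048 and 15576 in Sham hearts. The hearts of both groups lay close together and overlapped. The log2 difference was -0.07 ± 0.06, with an interval of -0.21 to 0.08 (limma adjusted p = 0.4428), so a change as large as that of Ace or Agtr1a lies outside what these hearts allow at this scaling. The related gene Ece2 shares its locus with another gene and was not analysed here.

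Of the receptor genes, Ednrb passed and Ednra did not. Ednra (chromosome 8, 80186928 to 80248351, minus strand, 8 exon blocks) had 4885, 5189.8, 5100.3 and 6005 normalised reads in MI hearts, against 4881, 5088, 5505 and 6329 in Sham hearts. The groups overlapped throughout, with a log2 difference of -0.04 ± 0.10 and an interval of -0.25 to 0.17 (limma adjusted p = 0.7777). Of its 5466 exon bases, 91 overlap a locus on the opposite strand, and whether the reads keep strand is not given in the sources used here.

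Ednrb (chromosome 14, 104213843 to 104244575, minus strand, 8 exon blocks) had 3820.5, 4647, 5525 and 5072 normalised reads in MI hearts, against 2785, 3582, 4251 and 2433 in Sham hearts. MI replicate 1 lay below Sham replicate 3, and the other MI hearts lay above every Sham heart. The means were 4766 ± 725 in MI and 3262 ± 815 in Sham, 1.46 times higher in MI (SD, n = 4 each; log2 difference 0.57 ± 0.17, limma adjusted p = 0.0216). The rise is the least stable of the 5 calls, since it ended in 4 of 8 fits that left out a library. The differences were 0.49 without MI replicate 3, 0.53 without MI replicate 4, 0.50 without Sham replicate 1 and 0.44 without Sham replicate 4, with adjusted p from 0.0552 to 0.0609. Without MI replicates 2 and 3 together, the hearts high in atrial and fat cell genes, it was 0.47 (adjusted p = 0.1189). The call held without MI replicate 2 alone, at 0.575 (adjusted p = 0.0359). It also held without MI replicate 2 and Sham replicate 3 together, at 0.71 (adjusted p = 0.0100). Both pairs were chosen after the data were seen, and fewer hearts were compared.

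Within a heart, Ednra stood at 1.22, 1.07, 0.88 and 1.13 times Ednrb per kilobase of exon in MI, against 1.67, 1.36, 1.24 and 2.49 times in Sham. Every MI ratio was below every Sham ratio, though MI replicate 1 at 1.22 and Sham replicate 3 at 1.24 nearly met. The log2 ratio averaged 0.09 ± 0.20 in MI and 0.70 ± 0.45 in Sham, a difference of -0.61 (exact permutation test, 2-sided p = 0.0286, Benjamini-Hochberg p = 0.0286 over 3 ratios). Without Sham replicate 4, at 2.49 times, the difference was -0.40, against -0.61 with all hearts.

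**Figure D2:**
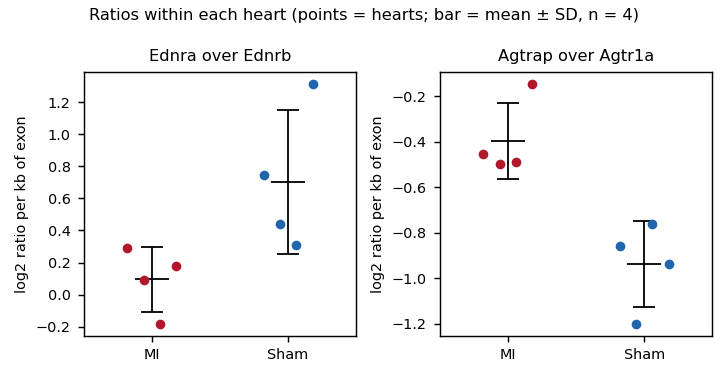
Log2 ratios of values per kilobase of exon within each heart for Ednra over Ednrb and Agtrap over Agtr1a, with a point per heart and the mean ± SD as bars (n = 4). The groups do not overlap in either, with a difference, MI minus Sham, of -0.61 for the first and 0.54 for the second.

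Scaled to exon length, the order of the genes differed between the groups at its upper end. In MI hearts Ace was highest at 3907 ± 559.5 normalised reads per kilobase of exon, followed by Ece1 at 1946 ± 62.5 and Agtr1a at 1627 ± 197. In Sham hearts Agtr1a was highest at 2582 ± 179, followed by Ece1 at 2038 ± 116 and Ace at 1839.9 ± 199.7 (SD, n = 4), and the ranges of Ece1 and Ace overlapped. Agtrap, Ednra, Ednrb, Agt, Edn1 and Edn3 followed in this order in both groups. The ranges of Ednra and Ednrb overlapped in MI and not in Sham, and those of Ednrb and Agt overlapped in both. The length of Agtrap includes an assembled extension of its last exon, which lowers its level on this scale.

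**Figure D3:**
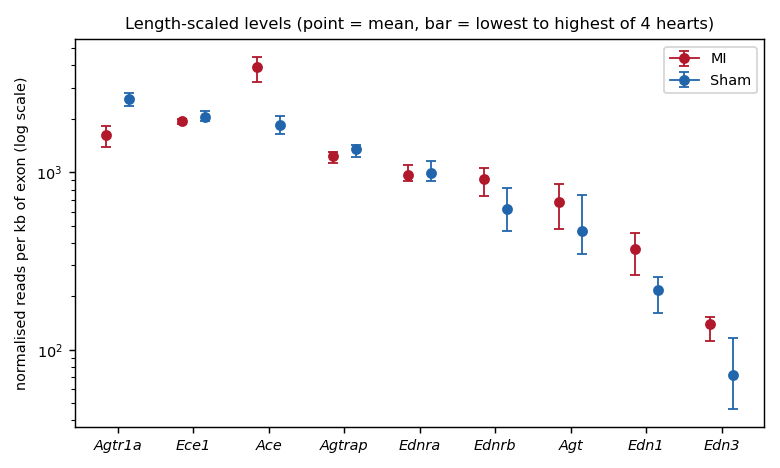
Normalised reads per kilobase of exon on a log axis for the 9 genes, with the mean as a point and the lowest and highest of 4 hearts as a bar, MI left of Sham. Ace stands at 3907 in MI, above all others, and at 1839.9 in Sham, while Agtr1a stands at 1627 in MI and at 2582 in Sham, above all others there.

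Some hearts stood at an end of their group for several of the 9 genes. MI replicate 4 held the highest MI value of 6 genes and MI replicate 1 the lowest of 6. Sham replicate 3 held the highest Sham value of 4, namely Ace, Agt, Edn3 and Ednrb. MI replicate 4 also had the highest MI sum of endothelial (210434), mural (645974), fibroblast (627526), macrophage (20436), mast cell (2015) and Schwann and glial (3351) markers. Its sums of cardiomyocyte markers and of epicardial and mesothelial markers were not the highest. The share over all loci was not computed, so these counts cannot be read as particular to the 9 genes. The genes nearest in pattern were sought among 11715 named loci with a mean of at least 100, by the root mean square difference of their log2 values over the 8 hearts once each gene's mean was removed. For Ace they were Myc at 0.09, Tlr4 and Ncf1, the last at 0.11. For Agtr1a they were Tango6 at 0.06, Gpr155 and Rad9b. Cbr3 at 0.10 and Bmp2 at 0.11 were among those of Edn1, and for Ednrb they were Sorbs3, Pnp and Fam107b, between 0.10 and 0.12. The nearest genes of Agt and Edn3, Nudt18 and Aqp8, lay at 0.21 and 0.20. Agt and Edn3 spread most among Sham hearts (coefficient of variation 39.1% and 44.0%). Such a distance grows with a gene's own spread, so distances are not compared between the 9 genes. Among genes that did not pass, Ednra lay nearest Tomm70a, Ece1 nearest Sfmbt1 and Agtrap nearest Prkrip1.

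Other genes of the renin-angiotensin, kinin and aldosterone systems divided between rises and falls. Of 24 listed, 22 were found as separate loci, of which 16 passed the filter. Of these 4 rose, 5 fell and 7 did not pass (median log2 difference -0.06, against -0.02 over all tested loci). Over all tested loci 40.9% passed, 20.8% as higher and 20.1% as lower. With scaling to library totals 8 rose and 4 fell. Genes at trace levels included renin, as Ren1 had 1 to 3 reads per library in MI and 0 in Sham, and the aldosterone synthase gene Cyp11b2 had 1 read in 1 MI heart and 0 in Sham. Precursor and enzyme genes Kng1 and Ctsg had 0 to 3 reads per library in MI and 0 to 1 in Sham.

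Bdkrb2, the constitutive bradykinin receptor, rose most of the 16. It had 196, 186, 262 and 147 normalised reads in MI hearts, against 50.1, 38.7, 31.8 and 37.8 in Sham hearts, 4.98 times higher in MI on average (log2 difference 2.28 ± 0.22, limma adjusted p = 3.43e-05). Mme, the gene of neprilysin, a peptidase that degrades angiotensins, bradykinin, natriuretic peptides and endothelins, fell most. It had 542, 712, 613 and 575 in MI hearts, against 1493, 1691, 1690.5 and 1450.5 in Sham hearts (log2 difference -1.38 ± 0.11, adjusted p = 1.04e-05). Neither gene's groups overlapped. Mme was also the single tested gene of the 5 in the endothelin list. Of the others, Edn2, Kel and Ecel1 had at most 16 reads in an MI library and 7 in a Sham library.

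Mas1, the receptor gene for angiotensin-(1-7), fell to 77.3 ± 17.1 in MI, against 156 ± 31.8 in Sham (log2 difference -1.01 ± 0.21, adjusted p = 0.0035). Part of its exons, 873 bases, overlap an unnamed locus on the opposite strand that averaged 777 in MI and 2192 in Sham, and without strand the reads of the pair cannot be told apart.

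Further genes of the renin-angiotensin list gave rises (Anpep, Prcp and Atp6ap2), an unstable fall (Lnpep) and no call (Enpep). Anpep, aminopeptidase N, averaged 3126 ± 896 in MI and 1583 ± 188 in Sham (log2 difference 0.94 ± 0.18), and Prcp, a carboxypeptidase that cleaves angiotensin II, 3617 ± 381 in MI and 2050.3 ± 643 in Sham (0.87 ± 0.19). Atp6ap2, known as the (pro)renin receptor and a partner of the proton pump, rose less (0.43 ± 0.08). Lnpep, insulin-regulated aminopeptidase, passed as lower (-0.28 ± 0.10, limma adjusted p = 0.0372), a call that ended in 5 of 8 fits with a library left out and with both scalings to totals, the first of which reversed it to 0.03. Enpep, aminopeptidase A, which makes angiotensin III, had a log2 difference of 0.06 ± 0.09 (adjusted p = 0.6283).

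Among steroid genes of the system, the receptor and the activating enzyme fell. Nr3c2, the mineralocorticoid receptor, had 2032, 2284, 2225 and 1468 normalised reads in MI hearts, against 3540.5, 4173, 2919 and 3300.0 in Sham hearts, without overlap (log2 difference -0.81 ± 0.15, limma adjusted p = 0.0017). Hsd11b1, which regenerates active glucocorticoid, fell to 806 ± 131 in MI, against 1987 ± 528 in Sham (-1.28 ± 0.18, adjusted p = 3.23e-04). Hsd11b2, which inactivates glucocorticoid, was low, at 14.6 to 31.3 in MI and 9.46 to 21.6 in Sham, and did not pass (adjusted p = 0.2209).

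Both receptor families couple to Gq proteins, which switch on phospholipase C and release calcium. The list of coupling genes also holds Gna12 and Gna13, which encode subunits of another G protein family. Of its 21 genes, all tested, 9 rose, 3 fell and 9 did not pass (median log2 difference 0.10). Over all tested loci 20.8% rose and 20.1% fell. With total scaling 15 genes of the list rose and 1 fell, and with upper-quartile scaling 8 rose and 5 fell. The largest rises were of Trpc6, a cation channel opened by diacylglycerol, at 84.9 ± 19.6 in MI and 28.1 ± 8.28 in Sham (log2 difference 1.59 ± 0.29), Rcan1, a calcineurin regulator (1.40 ± 0.16), and Arrb2, a beta-arrestin (0.88 ± 0.12). Arrb1, the other beta-arrestin of heart (0.665 ± 0.09), and the receptor kinase Grk5 (0.87 ± 0.095) rose as well. Smaller rises were of Rgs4 (0.39 ± 0.13), Gna13 (0.255 ± 0.06), Gnaq (0.22 ± 0.06) and Prkca (0.19 ± 0.065). The falls were of Rgs2, which shortens Gq signals (-0.81 ± 0.23, limma adjusted p = 0.0148), Gna12 and Gna11. In Rgs2 alone of these 3 did the groups overlap, with MI replicate 2 at 3368 above Sham replicate 1 at 3323. Rgs genes and genes of G protein subunits thus moved in both directions.

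Markers of the cells that could carry these RNAs moved unequally, and in bulk tissue fewer cells of a type and less RNA per cell cannot be told apart. Of 10 endothelial markers 1, Erg, rose and none fell, and their summed level was 175654 to 210434 normalised reads in MI, against 165084 to 210955 in Sham. All 9 fibroblast markers rose, with sums of 400273 to 627526 in MI against 101513 to 128491 in Sham, and 5 of 7 cardiomyocyte markers fell, with sums of 3501454 to 4074041 in MI against 4744083 to 5583402 in Sham. Mural cell markers gave 3 rises and 1 fall of 10 (511867 to 645974 in MI and 500993 to 567170.2 in Sham), and macrophage markers 5 rises of 5 (16246 to 20436 in MI and 10425 to 14019 in Sham). Of 5 tested mast cell markers 1 rose, Kit, which other cells also express and which makes up most of the list's sum (1213.9 to 1774.9 of 1459 to 2015 in MI, and 553.4 to 1258.1 of 782 to 1504 in Sham). The more specific Cma1, Mcpt4, Tpsb2 and Cpa3 did not pass, with log2 differences of -0.02, 0.03, -0.045 and 0.265. Schwann and glial markers gave 1 rise and 2 falls of 5 (2751 to 3351 in MI and 3429.9 to 4339 in Sham), and epicardial and mesothelial markers 4 rises of 5. Together the epicardial and mesothelial genes summed to 5314 in MI replicate 3, the heart high in fat cell genes, and to 1125.5, 1370.3 and 1172.8 in MI replicates 1, 2 and 4, against 418 to 1356 in Sham. MI replicates 1 and 4 lay below the highest Sham heart in that sum. No list had a marker at 3 reads or fewer in every library. The part of these cells in the changes of the 9 genes was not tested.

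The scaling between libraries bears on the genes that did not pass. Scaling to library totals shifted the median log2 difference of all tested loci by 0.305. Under it Ace, Agt, Agtrap, Edn1, Edn3, Ece1, Ednra and Ednrb passed as higher, with Agtrap at 0.18, Ece1 at 0.24 and Ednra at 0.27, all below that shift, and Agtr1a passed as lower at -0.36. Upper-quartile scaling gave a fall of Agtrap at -0.18. The directions of Agtrap, Ece1 and Ednra depend on the scaling, and those of Ace, Edn1, Edn3, Ednrb and Agtr1a were equal under all 4 other scalings.

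**Figure D4:**
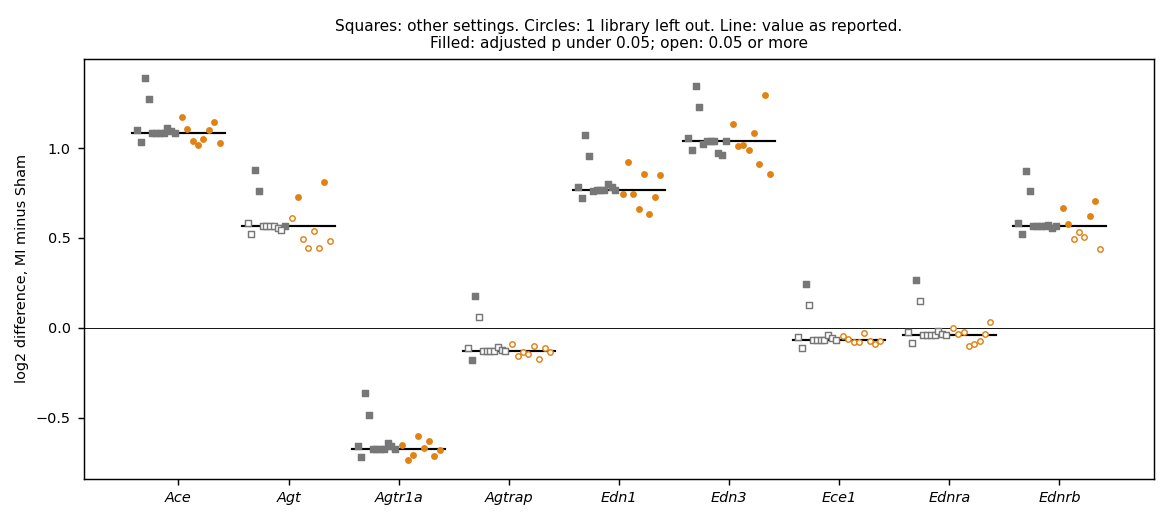
Log2 differences of the 9 genes, MI minus Sham, as reported (line), under 11 other settings (squares) and with 1 library left out (circles), filled where the adjusted p was under 0.05. Ace, Agtr1a, Edn1 and Edn3 stay filled throughout, Ednrb has 4 open circles, and Agtrap, Ece1 and Ednra lie on both sides of 0, Ednra alone of them also among the circles.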

How the data were processed

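The authors' deposited table holds a signal for each locus in each heart, made from reads by 1 factor per library: in every library 100.0% of values were whole multiples of the smallest one, within a tolerance of 1e-06, and multiplying back gave the reads. The submitters' processing notes name TopHat2 2.0.5, Cufflinks 2.0.2, HTSeq 0.5.4p2, DESeq and mm9; roles and settings are not stated here. The depth of 108.3 to 190.2 M reads makes 3 reads, the limit a count of 0 allows, worth 1.99 to 4.73 normalised reads, for counting error only; no molecular identifiers are described. The series states biological replicates. No 2 libraries were duplicates (chi-square per degree of freedom 31.7 to 148 within groups).

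Loci, which carry no symbols, were named by equal exon and intron lengths in GENCODE M21 on the same chromosome and strand, with starts used only to check order (96.2% of 20463 annotated loci with several exons were named, and 716 that match more than 1 gene were left out of lists). No coordinate was carried between builds; loci are on mm9, and promoter windows from RefSeq on GRCm38.p6, with an entry for 8 of the 9 genes, all but Agtr1a. Differences, MI minus Sham, were fitted on log2(value + 1) in R 4.3.3 by limma 3.58.1 (trend on), 2-sided, over 19186 loci, and a p below 0.05 after Benjamini-Hochberg adjustment was called; the pseudocount understates changes of low genes. The fit was tested on simulated data. edgeR 4.0.16 and DESeq2 1.42.0 on the recovered reads, 4 other scalings, other filters and pseudocounts and left-out libraries were alternatives. Ratios were tested by exact permutation in Python 3.11.15 with numpy 2.4.6. Genes named besides the 9 are the 3 called ones with the largest change per list, or the one with the smallest p. Mas1, Anpep, Prcp, Atp6ap2, Lnpep, Enpep, Nr3c2, Hsd11b2 and Erg were added after their values were seen. So were Arrb1, Grk5, Rgs2, Rgs4, Gna11, Gna12, Gna13, Gnaq, Prkca and the genes at trace levels. The 9 genes and all lists were chosen with earlier results of these data known. Bdkrb1 and Klkb1 had no named locus, and Ece2 shared one. A few named results, 1 of the 3 ratios among them, are not reported here.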

Additional observations from a re-analysis of the deposited data

Results flagged for a closer look

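In 54 groups of 4 hearts examined, each a gene or ratio in MI or in Sham, 2 held a heart far from the others, where chance gives about 1 group in 20. Grk5 stood at 5295 to 6205 normalised reads in MI hearts, against 3785 in Sham replicate 1, the heart apart, and 2943 to 3038 in the other Sham hearts. The log2 ratio of Agtrap over Agtr1a was -0.145 in MI replicate 4, a linear ratio of 0.90, against 0.71 to 0.73 in the other MI hearts, and without that heart the difference between the groups was 0.46, against 0.54 with it.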

How the results depend on the processing

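Over 189 values of the 9 genes under alternatives, 169 kept their direction and side of the threshold. Of the rest, 6 lost a call and 7 gained one in the same direction, and 7 reversed. Among the reversed values, those of Agtrap, Ednra and Ece1 under total scaling also gained a call. Total scaling gave 8525 higher and 1498 lower loci, against 3999 and 3855, and 8 higher genes of the 9. Among other pathway genes it gave 23 higher and 5 lower, against 13 and 8, and 5 lower markers, against 8. It reversed Agtrap (0.18), Ednra (0.27), Ece1 (0.24) and Lnpep (0.026), and Rgs2 no longer passed. Scaling to totals outside the mitochondrial genome gave 6368 higher and 2145 lower loci, 5 lower markers, and reversed values for Agtrap (0.061), Ednra (0.15) and Ece1 (0.13). Upper-quartile scaling gave 2 lower genes of the 9. The cause is the scaling itself, which shifts all loci. edgeR and DESeq2 called the same 5 of the 9. Leaving out 1 library gave 3362 to 3991 higher and 3180 to 3880 lower loci, 3 to 5 higher genes of the 9, 11 to 13 higher and 6 to 9 lower pathway genes, and 5 to 9 lower markers; Ednra ran from -0.101 to 0.035, the highest being without Sham replicate 4. Leaving out MI replicates 2 and 3 together, chosen after seeing the data, gave 2 higher genes of the 9, Ace and Edn1; fewer hearts were compared. The labels link same-numbered hearts by the number alone. Their deviations correlated at 0.15, 0.27, 0.16 and -0.00092 for numbers 1 to 4, and 5 of 8 hearts correlated best with their own number. Whether same-numbered hearts share a batch is not stated and was not tested. With replicate number as a block 4152 loci were higher and 4056 lower, 5 of the 9 genes higher, Agt among them (adjusted p = 0.0223), and 1 lower. Depth limits genes of few reads, such as Ren1 and Agtr2.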
